A study of Mus musculus with 6 samples.

Results

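A set of 10 genes of antigen presentation was followed in sorted mouse acinar cells. They were taken by symbol, 10 of the 55367 gene symbols listed for every library, by a rule that names them and uses no measured value. Class I was represented by 6 genes, the light chain gene B2m, the heavy chain genes H2-K1 and H2-D1, and the loading genes Tap1, Tap2 and Tapbp. Class II was represented by 4 genes, the invariant chain gene Cd74, the alpha chain gene H2-Aa and the beta chain genes H2-Ab1 and H2-Eb1. The series set out to describe the transcriptome of acinar cells, the exocrine cells of the pancreas that make digestive enzymes. It holds 6 RNA-seq libraries in 1 group, with no control or treated group. The mice carried Pdx1-Cre and Klf5-mCherry-CreERT2 and received no treatment. Pdx1 drives Cre in the developing pancreatic epithelium, so Cre in this line is not limited to acinar cells. Each library was made from 300 cells sorted for GFP, although the genotype given names no GFP reporter. Amplification followed a modified Smart-seq2 protocol with 12 cycles before library preparation. The strain, the MHC (H2) haplotype and the age of the mice are not given in the sources used here, the molecule is labelled genomic DNA, and whether different animals gave the different libraries is not stated. All p-values therefore measure only the spread between these samples, which may be technical.

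MHC class I molecules present peptides from the cytosol and nucleus on the surface of most nucleated cells to CD8 T cells. The TAP transporter moves peptides into the endoplasmic reticulum, and tapasin, with calreticulin and other chaperones, loads them onto heavy chains paired with beta-2-microglobulin. Class II molecules present peptides from the endosome to CD4 T cells, and they are best known from B cells, dendritic cells and macrophages. Interferon gamma can switch class II on in other cells, epithelium included. Both classes are controlled through a promoter module of X and Y boxes, read by NLRC5 for class I and by CIITA for class II, and class I heavy chain genes also carry an NF-kB site and an interferon response element.

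Promoter sequence is shown for the pair of heavy chain genes, the most abundant of the 10 genes apart from B2m, which was not measured. It is also shown for a class II alpha and a class II beta chain gene, so that the boxes both classes share can be compared. Of the 10 genes, 7 had an entry in the RefSeq promoter table (build GRCm38.p6). The 250 bases before the annotated start are printed 5′ to 3′ on the gene's strand. H2-K1 is chr17:34000348-34000597 on the minus strand, H2-D1 chr17:35262844-35263093 on the plus strand, H2-Aa chr17:34287824-34288073 on the minus strand and H2-Eb1 chr17:34305617-34305866 on the plus strand. The H2-D1 window lies inside the gene span used for counting, which starts at 35262730, so the RefSeq start of H2-D1 differs from that one. Capitals mark GGGGATTCCCC, which is of the NF-kB kind, GAANNGAAA (here read on the other strand, beginning TTTC), of the interferon response kind, ATTGG or its reverse CCAAT (Y box), and TGACG (X2 box) where ATTGG lies 19 to 22 bases beyond it on the same strand. These letters were chosen after the sequences had been read.
H2-K1: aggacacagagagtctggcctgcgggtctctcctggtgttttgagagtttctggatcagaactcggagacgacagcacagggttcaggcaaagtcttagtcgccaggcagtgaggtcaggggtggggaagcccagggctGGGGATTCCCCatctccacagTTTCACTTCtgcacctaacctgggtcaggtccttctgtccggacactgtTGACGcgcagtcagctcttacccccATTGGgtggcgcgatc
H2-D1: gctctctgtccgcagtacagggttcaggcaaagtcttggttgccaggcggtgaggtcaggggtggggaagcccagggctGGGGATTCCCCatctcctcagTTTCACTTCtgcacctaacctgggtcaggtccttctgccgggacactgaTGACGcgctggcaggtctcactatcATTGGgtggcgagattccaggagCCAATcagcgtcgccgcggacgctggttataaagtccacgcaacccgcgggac
H2-Aa: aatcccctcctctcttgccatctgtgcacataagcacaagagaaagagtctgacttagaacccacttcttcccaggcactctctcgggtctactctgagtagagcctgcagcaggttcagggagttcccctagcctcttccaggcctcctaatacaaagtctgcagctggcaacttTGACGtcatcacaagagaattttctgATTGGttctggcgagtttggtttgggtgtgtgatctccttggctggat
H2-Eb1: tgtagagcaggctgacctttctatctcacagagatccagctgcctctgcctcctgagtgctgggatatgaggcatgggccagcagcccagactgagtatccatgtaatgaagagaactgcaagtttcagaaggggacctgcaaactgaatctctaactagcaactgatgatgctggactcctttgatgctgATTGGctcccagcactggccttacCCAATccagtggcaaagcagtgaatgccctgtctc

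Motifs were searched on both strands in 300-base windows, from 250 bases before to 50 after the start. GGGGATTCCCC stood at positions -111 to -101 in H2-K1 and at -171 to -161 in H2-D1, counted from the annotated start. It was in 10 of all 32851 promoters, or 0.0304%. GAANNGAAA was in the same pair, at -90 to -82 and at -150 to -142, and in 7.52% of all promoters. The spaced pair of TGACG and ATTGG was in 4 of the 7 promoters, those of B2m, H2-K1, H2-D1 and H2-Aa. Between the boxes lay 20 bases in the class I genes and 21 in H2-Aa, and 78 promoters, or 0.237% of all, held the pair. ATTGG, part of that pair, was also found alone, in 37.4% of all promoters, and TGACG in 20.8%. Only these exact letters were searched, so a box with a changed letter was not counted. The printed H2-Eb1 sequence holds TGATG before its ATTGG, and whether H2-Eb1 has an X box was not tested. In a local alignment H2-K1 and H2-D1 matched at 206 of 228 columns (90.4%), whereas H2-K1 and H2-Aa matched at 58.9% of 163 columns. A match of letters is a description of these windows, and factor binding was not measured.

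Total counts ranged from 4670819 to 7072270 per library, and a count of 0 allows up to 3 counts, a CPM, or count scaled by the total of its library, of 0.424 to 0.642. Ribosomal RNA genes took 38.15% to 46.8% of the counts in replicates 1 to 3 and 59.9% to 60.9% in replicates 4 to 6. The deposited file names carry a number that separates these same replicates, and they are called set A and set B, although the labels do not say what that number means. All 10 acinar markers listed stood above background, with 20.8% to 25.95% of the counts in set A and 6.57% to 10.9% in set B, and so did 7 of 8 ductal markers. Reads were counted over whole gene spans with introns, so each gene has an expected background count, its span times the counts per Mb found over 1489 olfactory and vomeronasal receptor genes, which acinar cells are not known to use. That background was 26.4 to 109 counts per Mb in 5 libraries and 326.5 in replicate 5, so the calls are also given without replicate 5. Levels are in TPM, which are counts per kb of exon scaled to the same total in every library. That total includes the ribosomal RNA genes, so the TPM of other genes also depends on the ribosomal RNA share. Counting was of PCR-amplified reads without molecular identifiers, so intervals on counts cover counting error only.

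**Figure D1:**
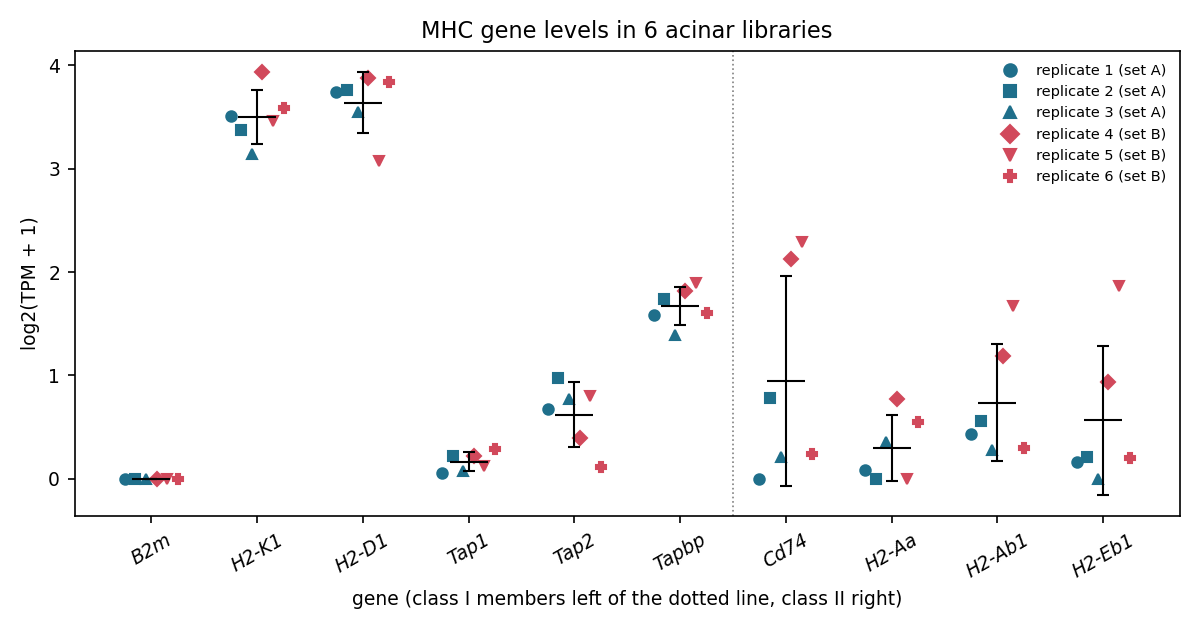
Level of each gene as log2(TPM + 1) on the vertical axis, with 1 point per library (circle, square and up triangle for replicates 1 to 3 of set A, diamond, down triangle and cross for replicates 4 to 6 of set B) and the mean and SD of 6 libraries as bars. H2-K1 and H2-D1 lay between 3.08 and 3.94 in every library, and the highest value of each class II gene came from replicate 4 or 5.

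The class I heavy chain genes were the most abundant of the 10 apart from B2m, which was not measured, and were counted in every library. H2-K1 (build mm10, chromosome 17, 33996017 to 34000347, minus strand) had 135, 91, 86, 142, 63 and 110 counts in replicates 1 to 6. This was 10.37, 9.37, 7.82, 14.3, 10.05 and 11.05 TPM, with a mean of 10.5 ± 2.17 TPM (SD, n = 6). The highest library, replicate 4, and the lowest, replicate 3, were of different sets, and the sets overlapped. H2-D1 (chromosome 17, 35262730 to 35267499, plus strand) had 142, 107, 103, 119, 41 and 116 counts, or 12.4, 12.6, 10.7, 13.7, 7.45 and 13.3 TPM, with a mean of 11.7 ± 2.31 TPM (SD, n = 6). Replicate 5 was the low library for H2-D1. Their mean levels in TPM ranked at the 97.2 and 97.5 percentile of all protein-coding genes.

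Expected background accounted for 0.401% of the H2-K1 counts and 0.441% of the H2-D1 counts. H2-K1 stood 6.92 log2 units above it (SE 0.43, adjusted p = 1.12e-06, limma, one-sided test of more than 2-fold over background, adjusted over 21937 protein-coding genes), and H2-D1 6.83 (SE 0.48, adjusted p = 2.53e-06 in the same limma fit). Replicate 5 gave the smallest excess for both, 44.6 times background for H2-K1 and 26.3 times for H2-D1, against 232 times or more and 222.5 times or more in the other 5 libraries.

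H2-D1 and H2-K1 differed by less than the spread between libraries. The ratio of H2-D1 to H2-K1 per exon length was 1.20, 1.34, 1.36, 0.955, 0.741 and 1.20 in replicates 1 to 6, with a mean of 1.13 ± 0.241 (SD, n = 6). By exon length H2-D1 was the higher gene in every library but replicates 4 and 5. The exact 95% interval of the ratio lay above 1 in replicate 2 (1.003 to 1.79) and replicate 3 (1.015 to 1.84) and covered 1 in the other 4. With gene span in place of exon length, mean log2(TPM + 1) was 3.49 for H2-K1 and 3.33 for H2-D1. Their order therefore depends on the length used. These genes share sequence with other class I genes. Of the 50-base stretches in H2-K1 transcripts, 9.63% also occur in another gene, 4.08% in H2-D1, and of those in H2-D1 12.8% do, 5.44% in H2-K1. How reads with several alignments were counted is not given in the sources used here, so the levels of both carry that uncertainty.

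B2m had no counts in any of the 6 libraries, and no absence can be read from that. Its whole span (chromosome 2, 122147686 to 122153083, plus strand) lies inside the span of Patl2, and 0% of its exon bases lie outside other genes. Among protein-coding genes with every exon base inside another gene's span, 1256 of 1369 (91.8%) had no counts at all, compared with 1322 of 14252 (9.28%) of genes free of overlap. The light chain of class I was therefore not measured.

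Among the loading genes, Tapbp, which encodes tapasin, was above background in every library, and the TAP transporter genes did not pass the test. Tapbp (chromosome 17, 33915899 to 33929292, plus strand) had 32, 28, 22, 31, 21 and 25 counts in replicates 1 to 6, or 1.99, 2.34, 1.62, 2.53, 2.71 and 2.03 TPM, with a mean of 2.20 ± 0.400 TPM (SD, n = 6). No library stood apart in TPM, and the counts lay 4.22 log2 units above background (SE 0.45, adjusted p = 0.000115, limma). The excess was smallest in replicate 5, at 4.80 times background, against 17.1 times or more in every other library. In replicate 5, 4.37 of the 21 counts were expected from background. Of its exon bases, 66.9% lie outside other genes, so its level may be understated.

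Tap2 (chromosome 17, 34203527 to 34216321, plus strand), which encodes the other chain of the peptide transporter than Tap1, had 10, 12, 10, 4, 6 and 1 counts, or 0.597, 0.960, 0.707, 0.313, 0.744 and 0.0780 TPM, with a mean of 0.567 ± 0.319 TPM (SD, n = 6). All 3 libraries of set A had 19.9 times background or more, whereas in set B the ratios were 5.98, 1.44 and 0.715. Tap2 did not pass the test over all 6 libraries (2.17 log2 units, SE 0.60, adjusted p = 0.112, limma). It passed in set A alone (3.64, adjusted p = 0.000599, limma), a fit added after the data had been seen, and without replicate 6 (2.67, adjusted p = 0.0313, limma). Only 42.6% of its exon bases lie outside other genes.

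Tap1 (chromosome 17, 34187553 to 34197225, plus strand) had 1, 3, 1, 3, 1 and 4 counts, with a mean of 0.120 ± 0.0714 TPM (SD, n = 6). No library had more than 4 counts, and expected background made up 43.2% of the 13 counts. Its excess over background was 1.00 log2 units (SE 0.48, adjusted p = 1, limma), although 96.1% of its exon bases lie outside other genes.

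Class II transcripts were scarce in most libraries and came mainly from replicates 4 and 5. Cd74, the invariant chain that guides class II molecules to the endosome (chromosome 18, 60803848 to 60812652, plus strand), had 0, 4, 1, 19, 14 and 1 counts in replicates 1 to 6. On the TPM scale this was 0, 0.721, 0.159, 3.35, 3.91 and 0.176, with a mean of 1.39 ± 1.76 TPM (SD, n = 6). Replicates 4 and 5 were the high libraries, and replicate 6 of the same set lay within the range of set A.

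The beta chain gene H2-Ab1 (chromosome 17, 34257689 to 34269419, plus strand) had 4, 4, 2, 11, 12 and 2 counts, or 0.352, 0.471, 0.208, 1.27, 2.19 and 0.230 TPM, with a mean of 0.787 ± 0.792 TPM (SD, n = 6). The other beta chain gene, H2-Eb1 (chromosome 17, 34305867 to 34316674, plus strand), had 1, 1, 0, 6, 11 and 1 counts, or 0.116, 0.156, 0, 0.914, 2.65 and 0.152 TPM, with a mean of 0.665 ± 1.03 TPM (SD, n = 6). Replicates 4 and 5 were again the highest for both. H2-Aa (chromosome 17, 34282744 to 34287823, minus strand), whose alpha chain pairs with the H2-Ab1 product, had 1, 0, 4, 9, 0 and 6 counts, or 0.0594, 0, 0.281, 0.702, 0 and 0.466 TPM, with a mean of 0.252 ± 0.288 TPM (SD, n = 6). It shared the high value of replicate 4 but was at 0 in replicate 5, where 1.66 counts were expected from background.

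Summed over the 4 class II genes, the libraries had 6, 9, 7, 45, 37 and 10 counts, with 0.962, 0.976, 1.43, 1.91, 11.9 and 3.98 expected from background. Replicates 4 and 5 together held 82 of the 114 class II counts (71.9%), compared with 365 of the 1255 heavy chain counts (29.1%). The ratio of class II counts to background was highest in replicate 4, at 23.6 (exact Poisson 95% interval 17.2 to 31.6). It was 6.24, 9.22 and 4.90 in replicates 1 to 3, 3.11 (2.19 to 4.29) in replicate 5 and 2.51 (1.21 to 4.62) in replicate 6. The class II counts of replicate 5 thus came with the highest background of the 6 libraries. In bulk libraries a small number of cells rich in class II RNA and a low level in many cells cannot be told apart.

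**Figure D2:**
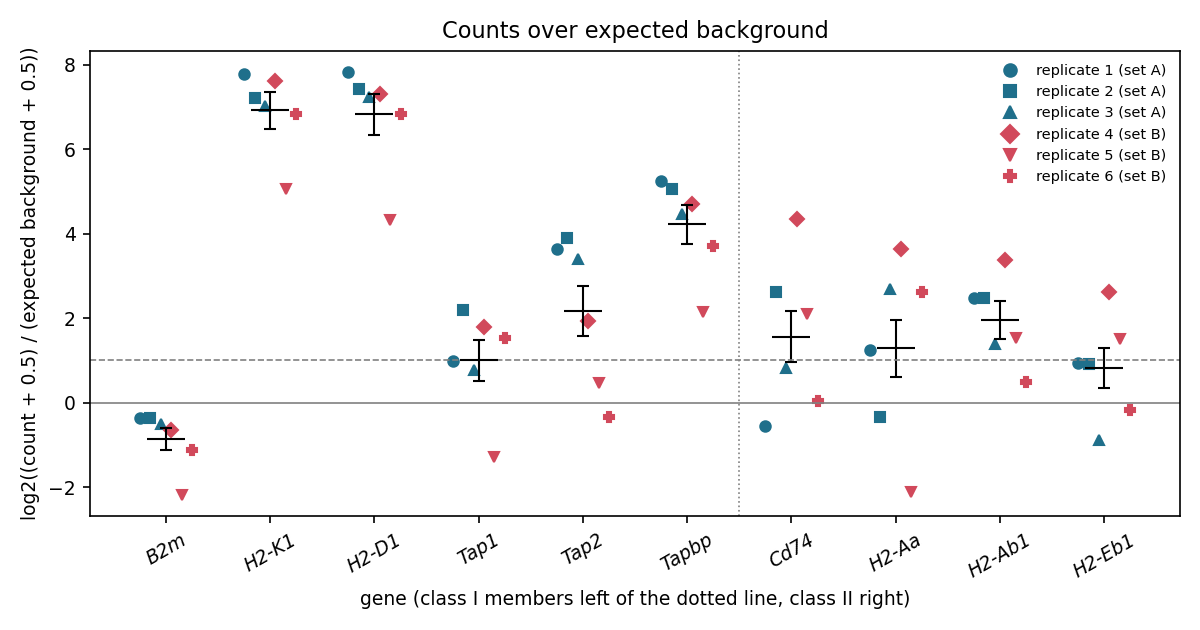
Counts over expected background, as log2((count + 0.5) / (expected background + 0.5)) on the vertical axis, with 1 point per library and the mean and SE of 6 libraries as bars; the solid line marks background and the dashed line 2-fold over it. H2-K1, H2-D1 and Tapbp lay above the dashed line in all 6 libraries, and no class II gene did.

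Of the 6 class I genes 3 were called more than 2-fold above background (H2-K1, H2-D1 and Tapbp), and of the 4 class II genes 0 were, in a limma fit that called 30.5% of all protein-coding genes. With the fit limited to genes mostly free of overlap, which leaves out B2m and Tap2, 34.1% of genes were called, and so were 3 class I and 0 class II genes. Read against the 30.5%, the class I share was higher and the class II share lower, on 6 and 4 genes. At an unadjusted p under 0.05 in the limma fit, 1 class II gene passed. The median excess over background was 3.19 log2 units for class I, B2m included, and 1.425 for class II, beside 0.49 for all protein-coding genes. Of class II, H2-Ab1 came nearest (1.95 log2 units, SE 0.45, unadjusted p = 0.0288, adjusted p = 0.0881, limma), followed by Cd74 (1.56, SE 0.61, adjusted p = 0.481, limma). H2-Aa stood at 1.29 (SE 0.68, adjusted p = 0.823, limma) and H2-Eb1 at 0.82 (SE 0.48, adjusted p = 1, limma).

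The class II call depended on the threshold. When any excess over background was asked for, a rule that called 42.8% of all genes, H2-Ab1 (adjusted p = 0.0017, limma) and Cd74 (adjusted p = 0.0304, limma) passed, and Tap2 joined the class I genes (adjusted p = 0.00513, limma). H2-Ab1 also passed the 2-fold test without replicate 6 (2.24 log2 units, adjusted p = 0.0435, limma) and with background scaled to exon length (2.42, adjusted p = 0.0076, limma), where Tap2 passed as well (2.45, adjusted p = 0.0221, limma). Without replicate 5 the calls numbered 3 in class I and 0 in class II, and 36.4% of all genes were called.

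**Figure D3:**
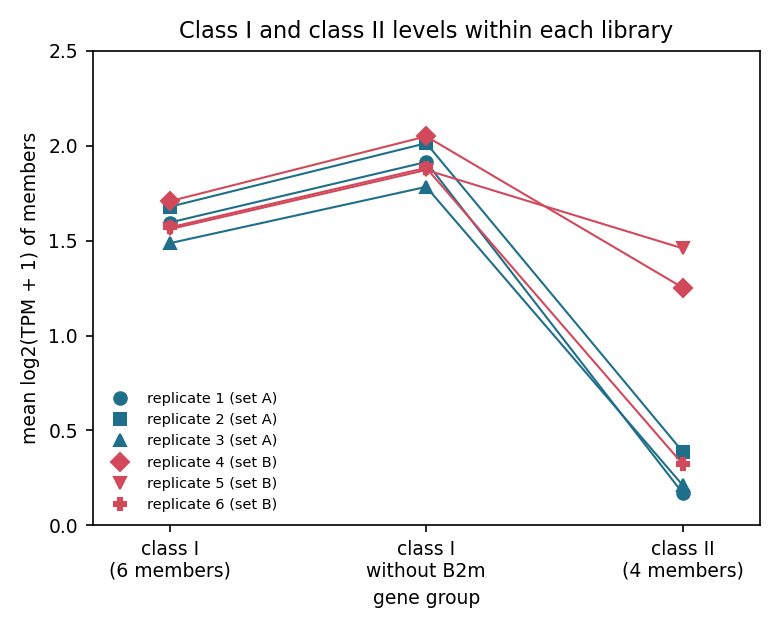
Mean log2(TPM + 1) of the class I genes, of class I without B2m and of the class II genes on the vertical axis, with 1 line per library. Class I means lay between 1.49 and 1.71, and class II means split into 1.25 and 1.46 in replicates 4 and 5 and 0.169 to 0.387 in the other 4.

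The class I mean was higher than the class II mean in all 6 libraries, but the gap was small in replicates 4 and 5. The mean log2(TPM + 1) of class I was 1.60, 1.68, 1.49, 1.71, 1.56 and 1.57 in replicates 1 to 6, with a mean of 1.60 ± 0.0814 (SD, n = 6). B2m, which was not measured, entered these means as 0. That of class II was 0.169, 0.387, 0.211, 1.25, 1.46 and 0.322, with a mean of 0.633 ± 0.569 (SD, n = 6), and the median over all protein-coding genes was 0.492. The difference was 1.43, 1.29, 1.28, 0.455, 0.1004 and 1.25, with a mean of 0.966 ± 0.548 (SD, n = 6). Class I itself was within its range in the other 4 libraries in replicate 5 and highest in replicate 4, so the small gaps came with high class II values.

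Leaving out B2m raised the difference to 1.29 ± 0.545, and leaving out replicate 5 gave 1.14 ± 0.388 (SD, n = 5). The difference was 0.52 with the median of the genes in place of the mean, 1.997 when only genes with a mean TPM of 1 or more were kept (3 in class I, Cd74 in class II) and 1.45 with length limited to exon bases outside other genes. In summed TPM, H2-K1 and H2-D1 exceeded the 4 class II genes 43.3, 16.3, 28.5, 4.49, 2.0 and 23.8 times in replicates 1 to 6.

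In order of mean TPM the genes ran H2-D1, H2-K1, Tapbp, Cd74, H2-Ab1, H2-Eb1, Tap2, H2-Aa and Tap1, and B2m, which was not measured, was given no rank. The step from H2-K1, at 7.82 TPM or more, to Tapbp, at 2.71 or less, was the only one between neighbours with counts where the ranges over libraries did not overlap. From Tapbp down to Tap1 each gene's range overlapped the next.

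The remaining class I genes were mostly near background. Of 22 other heavy chain genes tested, 2 were called more than 2-fold above background, compared with 30.5% of all protein-coding genes in the same fit. They were H2-T22 (1.55 ± 0.780 TPM) and H2-Q2 (1.21 ± 0.557 TPM). The next highest, H2-M1, had 0.445 ± 0.698 TPM, and the median excess of the list was -0.13 log2 units, beside 0.49 for all genes. Of 25 listed, 8 had no counts, and 3 of these (H2-T10, H2-T23 and H2-T24) lie wholly inside other genes and were, like B2m, not measured. Of the 50-base stretches in H2-T22 transcripts 53.5% also occur in other genes, so its level is uncertain.

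Of the genes that supply and load peptides, 5 of 10 were called, beside 30.5% of all genes. The calnexin cycle and loading chaperones led, with Calr (calreticulin) at 23.7 ± 8.43, Canx (calnexin) at 16.9 ± 4.003 and Pdia3 (the disulfide isomerase of the loading complex) at 11.8 ± 1.76 TPM (SD, n = 6). These serve glycoprotein folding in general as well as class I. Psme1 (2.22 ± 0.355 TPM) and Psme2 (3.95 ± 1.23 TPM), which form the proteasome activator PA28, were the other 2. The immunoproteasome subunit genes, named after their values were seen, had 2 counts in all for Psmb8 and 8 for Psmb9, at 0.923 and 2.38 times background. Psmb10 and Tapbpl had no counts and lie inside other genes.

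Genes that work with class II molecules were mostly near background, with 1 of 11 tested called, beside 30.5% of all genes, and a median excess of 0.22 log2 units beside 0.49. The lysosomal genes Ifi30 (15.9 ± 3.48 TPM, 143 times background) and Ctsl (14.2 ± 3.06 TPM) were the highest. Both encode lysosomal enzymes, and Ifi30 was not tested because the annotation used does not class it as protein-coding. Marchf1, a ubiquitin ligase for class II, had 3.95 ± 6.12 TPM but 0.878 times its expected background. The peptide editor gene H2-DMa, named after its values were seen, had 32 counts at 2.82 times background, which did not pass (adjusted p = 0.254, limma). H2-Oa and H2-Ea had no counts. H2-Oa lies inside another gene, H2-Ea does not, and the haplotype that would tell whether H2-Ea is intact is not given.

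Of the transcription regulators of MHC genes 7 of 13 were called, beside 30.5% of all genes, with a median of 2.305 log2 units beside 0.49. The Y box subunit Nfyc (3.29 ± 1.40 TPM), the interferon regulatory factor Irf2 (2.998 ± 0.688 TPM) and the NF-kB subunit Rela (2.38 ± 0.603 TPM) were the highest. The class I activator gene Nlrc5 and the class II activator gene Ciita, named after their values were seen, did not pass. Nlrc5 stood at 1.65 times background and had 3, 4, 14, 5, 58 and 5 counts, with the high value in replicate 5. Ciita stood at 0.463 times background with 0, 4, 2, 0, 5 and 2 counts, and 28.8% of its exon bases lie outside other genes.

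Among 33 interferon receptor, signalling and induced genes 11 were called, a share near the 30.5% of all protein-coding genes, with a median of 0.75 log2 units beside 0.49 for all genes. All 11 were among the 26 genes of this list mostly free of overlap, beside 34.1% called of all such genes. Ifi27 (38.0 ± 11.5 TPM), the membrane protein gene Bst2 (10.41 ± 5.66 TPM) and the kinase gene Jak1 (5.37 ± 1.25 TPM) were the highest. The 4 with no counts (Tyk2, Gbp4, Igtp and Cxcl10) lie almost wholly inside other genes, with 5.68% or less of their exon bases outside them, and were in effect not measured.

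**Figure D4:**
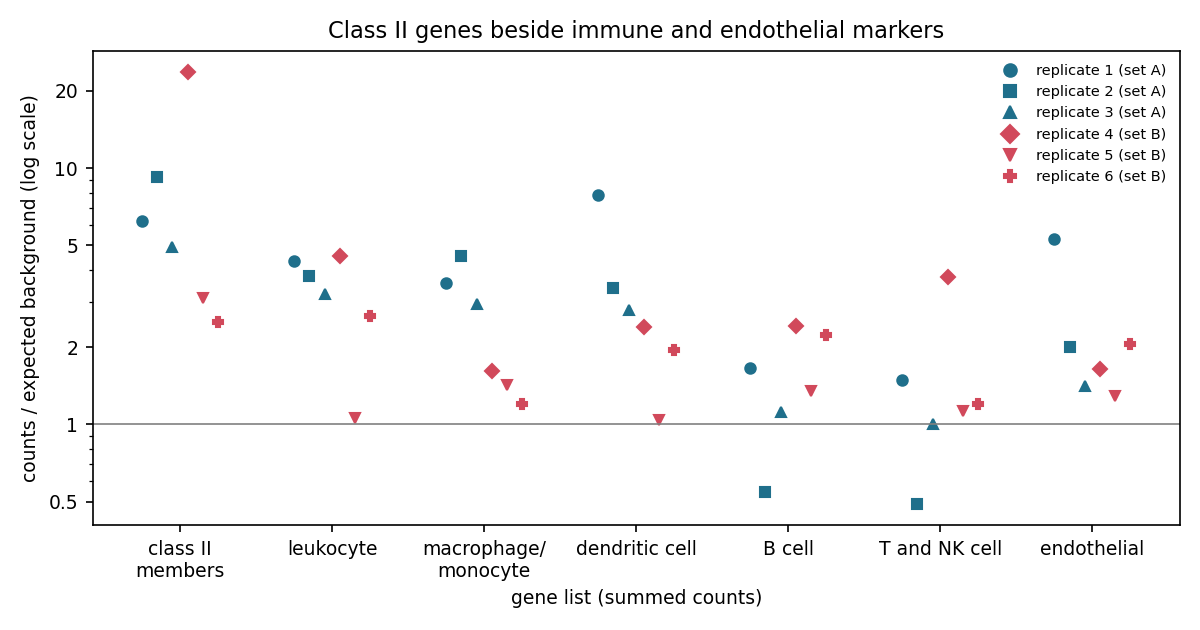
Summed counts over expected background on a log axis for the class II genes and for 6 marker lists, with 1 point per library; the line marks background. Class II reached 23.6 in replicate 4, where the immune lists lay between 1.62 and 4.52. Longer gene spans lower such a ratio, so it does not rank the lists by number of counts. In replicate 4 class II had 45 counts with 1.91 expected, and the leukocyte markers had 58 with 12.8 expected.

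Markers of immune cells were measured beside class II, since such cells carry it. Of the leukocyte markers 0 of 8 were called above background, of the macrophage and monocyte markers 1 of 13 (Lyz2, 1.90 ± 1.06 TPM), of the dendritic cell markers 1 of 10 (Zbtb46, 1.05 ± 0.605 TPM), of the B cell markers 0 of 5 and of the T and NK cell markers 0 of 8, in the fit that called 30.5% of all protein-coding genes. At an unadjusted p under 0.05 in the same limma fit, 1 leukocyte, 0 B cell and 0 T and NK cell markers passed. Their median excess was 0.61, 0.51, 0.25, 0.10 and 0.06 log2 units, beside 0.49 for all genes. Of the defining markers, Itgam, Ms4a1 and Igkc were at 0 in every library and lie wholly or almost wholly inside other genes. Of the endothelial markers, a cell type that can also carry class II, 1 of 8 was called.

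The summed leukocyte markers had 28, 25, 31, 58, 85 and 71 counts in replicates 1 to 6, at 4.32, 3.81, 3.23, 4.52, 1.06 and 2.65 times background. Replicate 4, highest for class II, was highest here by a small margin, and replicate 5 was near background. Cytip alone gave 22, 20, 13, 13, 14 and 33 of these counts, so the small margin over replicates 1 and 2 depends on it. The macrophage and monocyte list stood at 3.55, 4.55 and 2.95 times background in set A and at 1.62, 1.43 and 1.20 in set B. On the same scale class II stood at 6.54 times background over set A and 5.17 over set B (6.24, 9.22 and 4.90, and 23.6, 3.11 and 2.51, by library). The dendritic cell list was highest in replicate 1, at 7.84, and stood at 2.4 in replicate 4 and 1.04 in replicate 5. Zbtb46 alone gave 49 of its 66 counts in replicate 1, 16 of 40 in replicate 4 and 39 of 108 in replicate 5. Of the 30, 39 and 37 macrophage and monocyte counts in set A, Lyz2 gave 17, 10 and 7 and C1qa 6, 10 and 13. In set B they gave 4, 9 and 3, and 1, 0 and 2, of 27, 149 and 42. These list ratios thus rest partly on single genes.

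The lymphocyte lists were highest in replicate 4. The B cell list stood at 1.67, 0.547, 1.12, 2.43, 1.35 and 2.24 times background and the T and NK cell list at 1.49, 0.491, 1.01, 3.77, 1.13 and 1.20. The latter rests on 15 counts in replicate 4. The B cell receptor complex gene Cd79a had 7 counts in replicate 4, 1 in replicate 3 and 0 elsewhere. Cd3e, of the CD3 part of the T cell receptor complex, had 3 counts in replicate 4, 5 in replicate 5 and 0 elsewhere. The part of immune cells in the class II counts was not tested.

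Between the sets no gene of either class was called. Only 3 of the 6 class I genes and 0 of the 4 class II genes had enough counts for the edgeR quasi-likelihood test, which called 1 of 8723 genes higher in set B (0.0115%) and 0 lower, with 1407 and 851 at an unadjusted p under 0.05. DESeq2 called 556 higher and 233 lower, and of the 10 genes it gave an adjusted p to H2-K1, H2-D1 and Tapbp, which were not called. Set B minus set A was -0.12 log2 units for H2-K1 (SE 0.32, adjusted p = 0.845, edgeR), -0.50 for H2-D1 (SE 0.36, adjusted p = 0.42, edgeR) and -0.23 for Tapbp (SE 0.33, adjusted p = 0.703, edgeR). With no filter on low counts, Cd74 was 2.25 higher in set B (SE 0.96, adjusted p = 0.202, edgeR) and Tap2 was at -1.98 (SE 0.82, adjusted p = 0.181, edgeR). The set cannot be told apart from the ribosomal RNA share and the background that go with it.

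Tap2 was the only one of the 10 genes whose sets did not overlap in CPM. It had 1.42, 2.16 and 1.57 CPM in set A and 0.588, 1.285 and 0.141 in set B, and 6.62% of 18991 protein-coding genes lay without overlap in that direction. In TPM the sets overlapped, since replicate 5 had 0.744 and replicate 1 had 0.597. For higher values in set B the share was 16.4%, and none of the 10 genes was among them.

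Genes with the pattern most like H2-K1 across the 6 libraries were Fxr1, Smdt1 and Bri3bp, with root mean square differences of 0.083, 0.0927 and 0.0952 in centred log2 CPM, among 5552 protein-coding genes with 10 or more counts in every library. Tapbp ranked 355 (0.227) and H2-D1 ranked 1070 (0.307) by the same measure, so the other heavy chain gene was not among the nearest. All these points come from the same 6 libraries and share their depth. For Cd74 the nearest were Mgat5, Efna5 and Plekha7, at 1.23, 1.24 and 1.32, where Cd74 itself had 0 to 19 counts. H2-Aa, H2-Ab1 and H2-Eb1 did not reach 10 counts in every library, so they were not ranked for likeness to Cd74. H2-K1 ranked 3283 of 5553 for Cd74. B2m, with no counts, had no pattern to compare.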

How the data were processed

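The authors deposited 1 table of raw counts per library, whole numbers per gene symbol with no normalization. Per the submitters' processing notes, Trim Galore 0.6.4, FastQC, STAR 2.7.9a, SAMtools, featureCounts and build mm10 were used. The annotation release, strand setting and treatment of reads with several alignments or several genes are not given in the sources used here. The length column deposited beside the counts is another quantity, the counted interval in bp, and covers whole gene spans.

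Gene records came from GENCODE M21, whose start and end matched those of 98.8% of the symbols, and 99.9594% of the counts fell on symbols with an exon length (246 had none). TPM was computed from counts and exon length, and levels are log2(TPM + 1). Excess over background was fitted with limma 3.58.1 across 21937 protein-coding nuclear genes (pseudocount 0.5, treat at 2-fold, one-sided, Benjamini-Hochberg, threshold 0.05). The difference between the sets was fitted in R 4.3.3 with the quasi-likelihood test of edgeR 4.0.16, after TMM scaling and filterByExpr, and DESeq2 1.42.0 served as an alternative. All else was computed in Python 3.11.15 (scipy 1.17.1, numpy 2.4.6, pandas 2.3.3) and drawn with matplotlib 3.10.9. Class differences are descriptions with no test. The fits were tested on simulated data.

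Replicate numbers came from the sample titles, and the sets from the number in the deposited names. The 10 genes and all lists were chosen with earlier results of these data known. Genes named from lists were the 3 with the highest mean TPM, and the others named were chosen after their values were seen. Likeness names the 3 genes nearest to H2-K1 and to Cd74. Lists without further mention held class I-like genes (1 of 6 called). Alternatives covered length, scaling, pseudocount, background genes, filters, tools and each library left out. Sequences are from RefSeq.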

Additional observations from a re-analysis of the deposited data

Results flagged for a closer look

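In 1 of 16 quantities examined for a library far from the other 5, such a library was found. The background measured over olfactory and vomeronasal receptor genes was 326.5 counts per Mb in replicate 5, compared with 26.4, 26.8, 39.2, 52.3 and 109.3 in replicates 1, 2, 3, 4 and 6. The gap to the nearest library was 0.724 of the whole range, above the critical value of 0.625 (Dixon). About 1 in 20 groups of this size would pass that critical value by chance if the values were normally distributed. With 16 quantities examined, a flag can arise by chance. In replicate 5 the expected background made up 11.9 of the 37 class II counts but 1.41 of the 63 H2-K1 counts.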

How the results depend on the processing

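No paired analysis was possible because all libraries belong to 1 group and the labels give each its own number from 1 to 6. Of 346 alternative values for 30 results, 302 kept their direction and call or stayed within the spread between libraries. The class I minus class II difference was 1.997 with only genes of mean TPM 1 or more, and 0.87 to 1.14 when each library was left out. Without ribosomal RNA genes in the total, mean log2(TPM + 1) rose from 3.503 to 4.225 for H2-K1 and from 3.64 to 4.365 for H2-D1. It rose from 1.67 to 2.251 for Tapbp and from 0.161 to 0.277 for Tap1, and the class difference was 1.064. The number of genes above background, 6699, became 10395 with background scaled to exon length and 2833 in set B alone, a fit added after the data had been seen. Class II genes above background numbered 2 for any excess, 1 with exon length and 0 to 1 when each library was left out, and class I genes 3 to 4 over all alternatives. Genes higher in set B numbered 556 with DESeq2, 790 without a filter on low counts and 0 to 1656 when each library was left out, and genes lower in set B 233, 203 and 0 to 561. The H2-K1 difference between the sets was -0.51 to 0.090 when each library was left out, and it turned from -0.12 to 0.090 (adjusted p = 0.847, edgeR) without replicate 5. Leukocyte markers stood at 2.09 times background over all libraries, and at 1.85 to 3.42 when each was left out, with 3.42 without replicate 5. The cause of these shifts was not tested, apart from the smaller number of libraries or genes that a setting leaves. Counts of 0 to 19 per library limit what can be said of Tap1, H2-Aa, H2-Eb1 and Cd74.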
